A study of Solanum lycopersicum with 18 samples.

Results

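The narrow lost H3K27me3 sites on the chromosome arms of tomato are 5801 regions that carried a peak in both wild-type (WT) replicates and no reproducible peak in the *crel-2* mutant. Members were chosen by the presence or absence of peaks, by width and by place. Where peaks of both replicates of a genotype overlapped by 1 bp or more, the bases common to them were taken as a reproducible region. A region of WT was a member if it lay on chromosomes 1 to 12, was under 4000 bp wide, held no base of a reproducible *crel-2* interval, and had its midpoint in the first or last 25% of the chromosome. The end of the last peak in any list stood for the end of the chromosome. The 5801 sites are 37.2% of the 15590 reproducible WT regions and 68.4% of the 8481 regions that were lost on the 12 chromosomes. As background, 7915 of the 15216 WT regions on the 12 chromosomes, lost or kept, were narrow and on arms. These values were used by the choice and are therefore given as a description and without a test.

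H3K27me3 was mapped by chromatin immunoprecipitation and sequencing (ChIP-seq) in shoot apices with young expanding leaves, harvested from soil-grown plants at an age of 28 days. There were 2 *crel-2* and 2 WT replicates, and each peak list comes from 1 replicate. The labels call the mutant *crel* and the methods name the allele, *crel-2*, which comes from a mutant population in the M82 background, so the mutant group is 1 line and other alleles were not compared. The lists give only where a peak begins and stops, with no height, so a site without a peak may still carry some of the mark, and they do not hold the number of reads behind a peak. Sequence names and positions are those of the SL2.40 build.

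H3K27me3 is set by Polycomb Repressive Complex 2 (PRC2) and marks genes that are held silent during development. In plants it typically covers single genes or small groups of genes rather than long domains. Proteins of the VIL family, to which CREL belongs, carry a PHD finger and are known from Arabidopsis to help PRC2 to act at targets such as the flowering repressor gene *FLC*. Tomato chromosomes have gene-rich arms and a large gene-poor, heterochromatic interior, so a WT mark on a gene is most often found on an arm.

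The loss was concentrated in narrow arm regions. Of all WT regions on the 12 chromosomes 55.7% were lost, and of the narrow ones on arms 73.3% were (95% Wilson interval 72.3 to 74.3, which here and below covers counting error only and treats sites as independent). The narrow regions of chromosome interiors lost 1473 of 3016, or 48.8% (47.1 to 50.6). Wide arm regions, of 4000 bp or more, lost 990 of 2994, or 33.1% (31.4 to 34.8). Together the 5801 sites covered 7.84 Mb, and the 990 wide lost arm sites covered 6.60 Mb.

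The number of narrow arm peaks differed between the genotypes in every list. The *crel-2* lists held 3138 narrow arm peaks in replicate 1 and 3098 in replicate 2, against 9322 and 8282 in WT replicates 1 and 2. Both *crel-2* counts lay below both WT counts. Wide arm peaks numbered 2040 and 2170 in the *crel-2* replicates, against 3371 and 3230 in the WT replicates. Narrow arm peaks made up 34.4% and 33.2% of all peaks in the *crel-2* lists, against 51.2% and 50.1% in the WT lists.

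Single lists were then compared, with no intersection of replicates. A narrow arm peak of WT replicate 1 found no overlapping peak in *crel-2* replicate 1 in 76.1% of cases and in *crel-2* replicate 2 in 75.02%. For WT replicate 2 the shares were 74.2% and 73.1%. The spread between replicates was smaller. A narrow arm peak of WT replicate 1 was missing from WT replicate 2 in 27.1% of cases, and a peak of WT replicate 2 from WT replicate 1 in 14.4%. Between the *crel-2* replicates the shares were 19.1% and 29.8%. All 4 comparisons of WT with *crel-2* lists thus lay above all 4 comparisons within a genotype. They use the same peak calls as the rule and are a description. The *crel-2* lists are also shorter, with 9116 and 9321 peaks in all against 18194 and 16530 in WT, so fewer overlaps can be found in them. With 2 lists a genotype an exact permutation test over samples cannot fall below p = 0.333, so none was run.

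**Figure D1:**
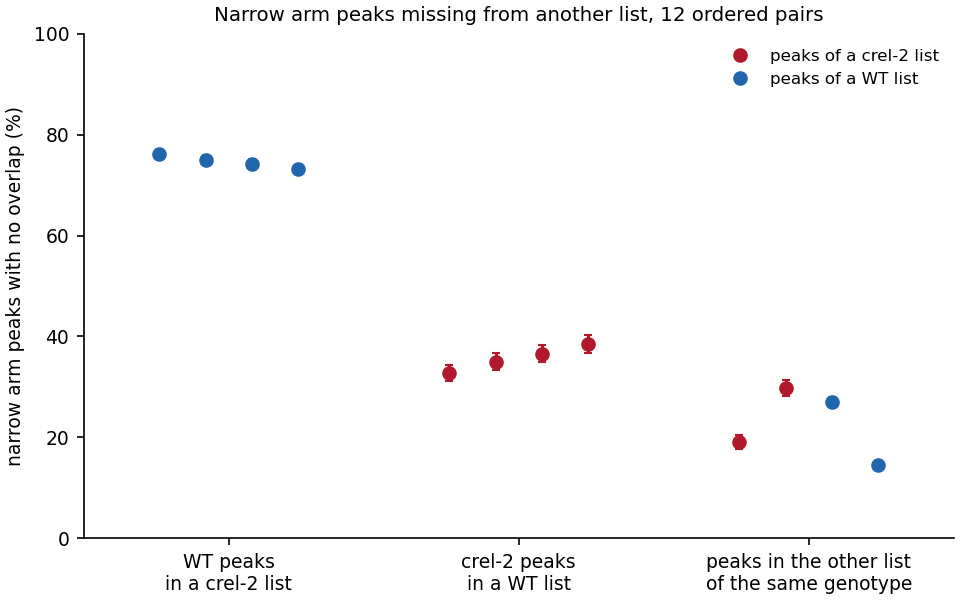
Share of narrow arm peaks (under 4000 bp, outer 25% at each chromosome end) of 1 list that no peak of another list overlapped, in percent, for the 12 ordered pairs of the 4 lists. Points are pairs and bars are 95% Wilson intervals, smaller than the point where not seen. The 4 WT peak sets sought in a *crel-2* list lie between 73.1% and 76.1%, the *crel-2* sets sought in a WT list between 32.7% and 38.5%, and the pairs within a genotype between 14.4% and 29.8%.

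The opposite direction was smaller. A narrow arm peak of a *crel-2* list was missing from a WT list in 32.7% to 38.5% of cases. This range lies above the 19.1% and 29.8% between the *crel-2* replicates, though its lower end is close to the higher of these. By the same rule with the genotypes exchanged, 911 of 2776 narrow arm intervals shared by the *crel-2* replicates, or 32.8% (31.1 to 34.6), held no base of a reproducible WT region. They are fewer than the 5801 lost sites, which are 73.3% of 7915 narrow arm WT regions. The share over all reproducible *crel-2* intervals is not given here.

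The share of regions lost fell along the arm, with the highest share next to the chromosome end. In the outermost 2.5% of the chromosome 1031 of 1176 narrow WT regions were lost, which is 87.7% (85.7 to 89.4). Between 5% and 10% of the length the share was 77.3%, between 10% and 15% it was 70.3%, and between 20% and 25%, at the inner border of the arm, it was 50.2% (47.1 to 53.3). Beyond the border it was 59.3% between 25% and 30% and 40.4% between 40% and 50%, so the series was not strictly falling. In absolute distance, 88.5% were lost within 1 Mb of the end, 85.9% between 2 and 4 Mb, 69.3% between 6 and 10 Mb and 55.5% from 10 Mb to the border. Of the 5801 sites, 62.1% lay within 10% of an end.

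The lists of single replicates show where along the arm the genotypes differed. In the outermost 2.5% of the chromosomes there were 7.11 and 7.24 narrow peaks per Mb in the *crel-2* replicates, against 37.5 and 31.8 in the WT replicates. Between 20% and 25% there were 8.44 and 8.27 narrow peaks per Mb in the *crel-2* replicates, against 14.9 and 13.6 in the WT replicates. Narrow WT peaks were thus densest in the outer 5% of the chromosomes, whereas over the arm the *crel-2* lists stayed between 7.11 and 9.65 narrow peaks per Mb. Reproducible narrow regions that were lost had 27.2 per Mb in the outermost bin and 6.54 per Mb at the border. Reproducible narrow regions that were kept had 3.82 per Mb in the outermost bin and 6.49 per Mb at the border.

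**Figure D2:**
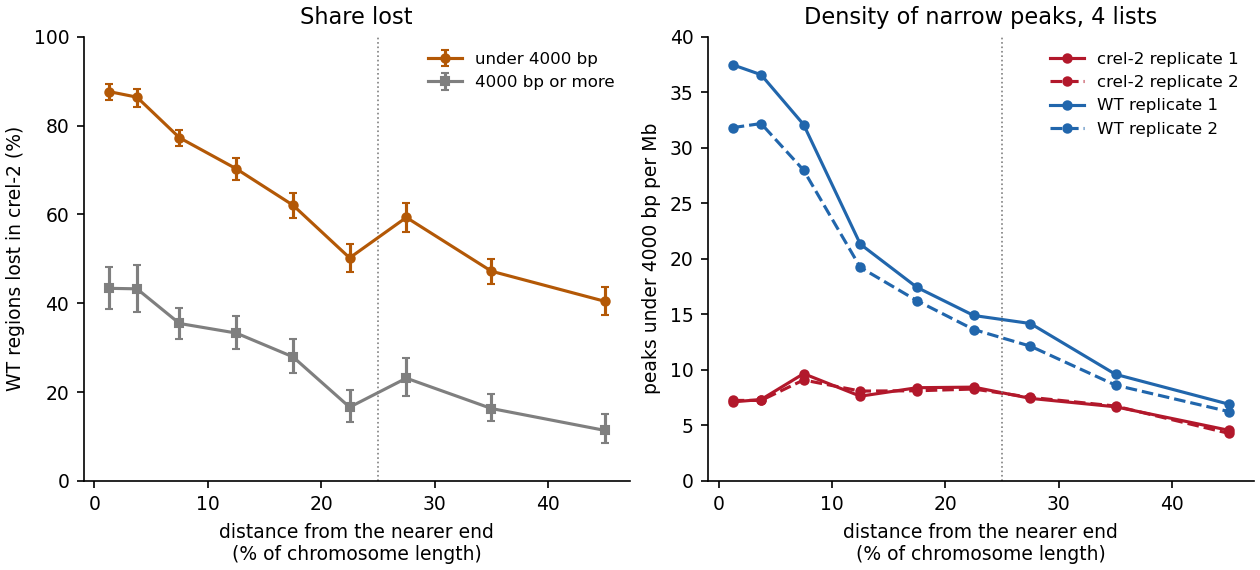
Left, share of reproducible WT regions lost in *crel-2*, in percent, against the distance of the region from the nearer chromosome end, in percent of chromosome length, for narrow and wide regions, with 95% Wilson intervals. Right, peaks under 4000 bp per Mb in each of the 4 lists against the same distance. The dotted line is the limit of the arm at 25%, the share of narrow regions lost runs from 87.7% at the end to 50.2% at this limit, and the *crel-2* lists stay under 10 peaks per Mb where the WT lists reach 37.5 and 31.8.

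Within the outer 10% of the chromosomes 3602 of 4370 narrow regions were lost, or 82.4%, against 2199 of 3545, or 62.0%, in the rest of the arms. The outer share was the higher one on 12 of 12 chromosomes and at 23 of the 24 chromosome ends. The exception was the first arm of chromosome 2, which held only 37 narrow regions, with 61.5% lost in its outer part and 70.8% in the rest. The same order held at each width. Of regions under 500 bp, 87.6% were lost in the outer part and 68.7% in the rest, and of regions of 3000 to under 4000 bp 67.2% and 39.5%. When 1 replicate was left out at a time, the difference between the outer part and the rest of the arm lay between 18.4 and 21.2 percentage points, and it kept its direction on 12 of 12 chromosomes.

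All 12 chromosomes contributed members, from 330 on chromosome 12 to 711 on chromosome 1. Per Mb of arm there were 10.1 sites on chromosome 12, the fewest, and 19.0 on chromosome 4, the most. The share of narrow arm regions lost was highest on chromosome 2, with 399 of 455 or 87.7% (84.4 to 90.4), followed by chromosome 6 with 79.4% and chromosome 12 with 78.2%. It was lowest on chromosome 11, with 401 of 602 or 66.6% (62.7 to 70.3), and chromosome 9, with 68.0%. The intervals of most chromosomes between these overlap, so their order is not resolved. On 12 of 12 chromosomes the share was higher on the arms than in the interior, by 9.99 percentage points on chromosome 3 and by up to 39.0 on chromosome 4. Since place and loss are both part of the rule, this was not tested.

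**Figure D3:**
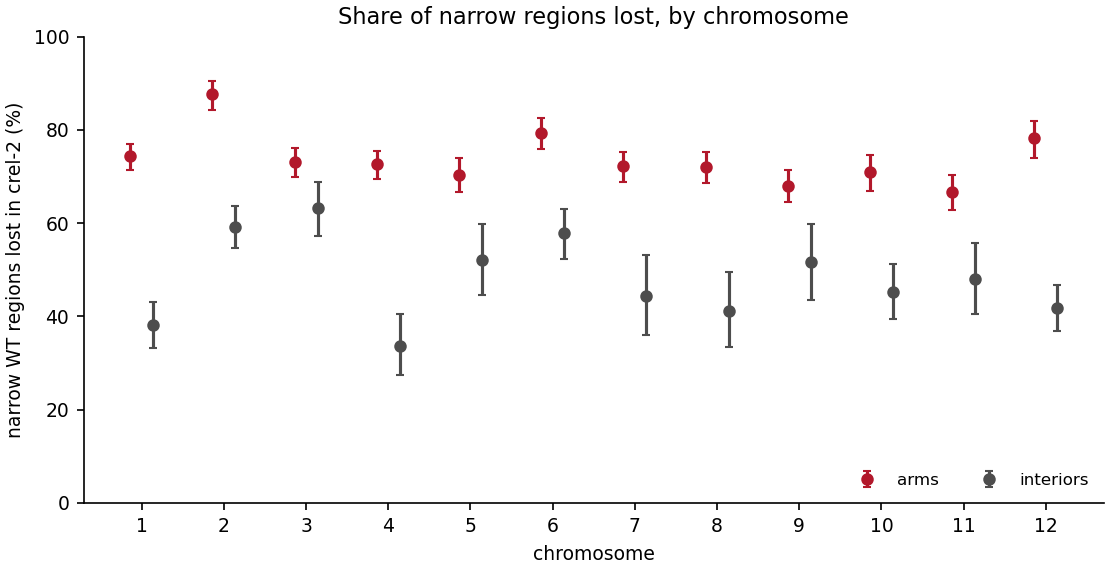
Share of narrow reproducible WT regions lost in *crel-2*, in percent, on the arms (red) and in the interior (grey) of each of the 12 chromosomes, with 95% Wilson intervals. The arm value is the higher one on every chromosome, from 66.6% on chromosome 11 to 87.7% on chromosome 2.

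The arms of a chromosome, at the low and the high end of its coordinates, seldom held the same number of members. The first arms held 2000 and the last arms 3801, and the last arm held more on 9 of 12 chromosomes. Chromosome 2 was the most uneven, with 25 members in the first arm and 374 in the last. As background, in tomato the short arm of this chromosome carries the ribosomal RNA gene cluster and is largely heterochromatic. On chromosome 1 the first arm lost 160 of 298 narrow regions, or 53.7%, the lowest share among the 24 ends, and the last arm lost 551 of 658, or 83.7%. On chromosome 7 the values were 56.4% in the first arm and 81.4% in the last. On chromosomes 9 and 12 the arms were close, with 67.6% and 68.3% on chromosome 9 and 77.3% and 79.3% on chromosome 12.

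The members had a median width of 1066 bp, with the middle 50% between 534 and 1972 bp. The narrow arm regions that were kept had a median of 1688 bp, and the narrow lost sites of the interior one of 997 bp. The share lost was close to level up to 2000 bp and lower above it. It was 82.0% (77.4 to 85.7) for arm regions under 250 bp, 79.98% for 500 to under 1000 bp, 76.4% for 1000 to under 2000 bp, 65.2% for 2000 to under 3000 bp and 53.9% (50.6 to 57.1) for 3000 to under 4000 bp. Interior regions of the same widths were lost less often in each of the 6 width classes, with 61.3% at 500 to under 1000 bp and 23.6% at 3000 to under 4000 bp.

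**Figure D4:**
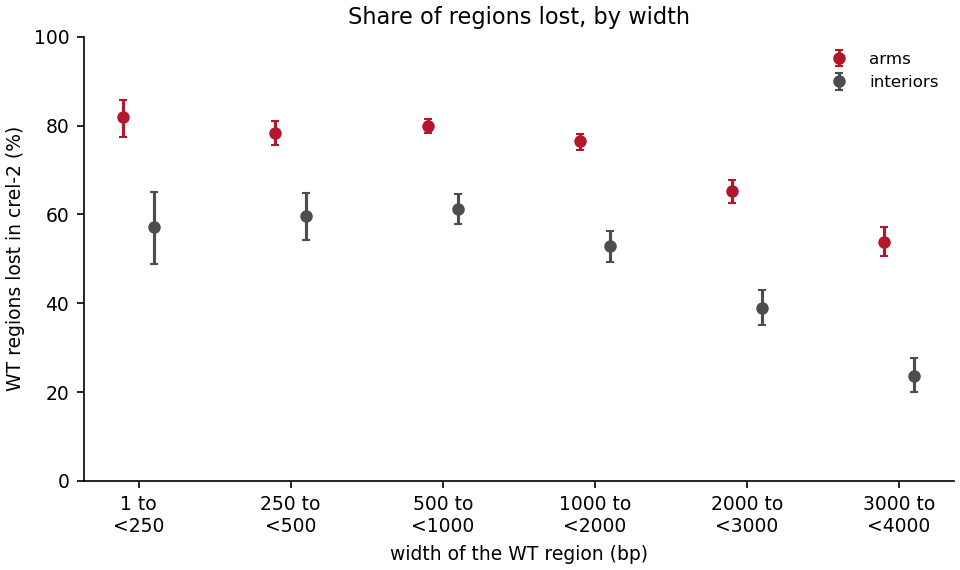
Share of reproducible WT regions lost in *crel-2*, in percent, by width of the region in bp, on chromosome arms (red) and in chromosome interiors (grey), with 95% Wilson intervals. The arm share runs from 82.0% under 250 bp to 53.9% at 3000 to under 4000 bp, and lies above the interior share in each of the 6 classes.

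The limits of the rule cut through a continuous range. The widest members were 3997 bp on chromosome 2 (44449107 to 44453103), 3989 bp on chromosome 10 (4185 to 8173) and 3988 bp on chromosome 6 (416574 to 420561). The first of these is cut from a WT replicate 1 peak of 16321 bp by a replicate 2 peak of 4168 bp. The narrowest lost arm regions outside the limit were 4003 bp on chromosome 3 (58327869 to 58331871), 4005 bp on chromosome 4 (5256899 to 5260903) and 4006 bp on chromosome 5 (60748100 to 60752105). The innermost members lay 24.9964%, 24.9907% and 24.9896% of the length from an end, on chromosomes 2, 4 and 6, and the next lost sites beyond the limit, at 25.0001%, 25.0212% and 25.0487%, were on chromosome 1 (both of the nearest) and chromosome 3.

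Every member has a peak in both WT lists by the rule, and these peaks differed in extent. Their median width was 1688 bp in replicate 1 and 1448 bp in replicate 2, and replicate 1 had the wider peak at 3270 of the 5801 sites, or 56.4%. At 588 sites the replicate 1 peak and at 749 sites the replicate 2 peak had a width of 501 bp, the smallest in the WT lists. Both had it at 212 sites. At 930 sites, or 16.0%, at least 1 of the WT peaks was 4000 bp or wider, and at 48 sites both were, so that a narrow shared interval does not always stand for a narrow mark. At 161 sites, or 2.78%, a WT peak also reached a reproducible *crel-2* interval outside the shared part. The members are not independent of one another, because 1075 of them, or 18.5%, shared a WT peak with another member. They form 5240 groups not linked by a shared peak, and at 4436 sites the WT peaks gave no other region.

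Agreement of the WT replicates was measured as the bases that both WT peaks covered, divided by the bases that either covered. It is given as a description without a test, because its numerator is the width of the shared interval, which the rule used and which differed between lost and kept regions. Its median was 0.61 for the members and 0.72 for the narrow arm regions that were kept, and it was lower for the members on 12 of 12 chromosomes. Within width classes the difference varied in size and direction. Among arm regions of 250 to under 500 bp the medians were 0.39 for lost and 0.50 for kept regions. Among arm regions of 1000 to under 2000 bp the medians were 0.69 for lost and 0.70 for kept regions, lower for lost ones on 7 of 12 chromosomes. Among those of 500 to under 1000 bp the order was turned, with 0.51 for lost and 0.47 for kept regions. It was also turned under 250 bp, with 0.09 for lost and 0.04 for kept regions. Narrow lost sites of the interior had a median agreement of 0.61 as well.

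The lowest and highest values show what the measure holds. On chromosome 12 the WT replicate 1 peak ran from 56875186 to 56876770 and the replicate 2 peak from 56875183 to 56876771, an agreement of 0.997, and neither *crel-2* replicate had a peak within 128549 bp. On chromosome 5, at 58923389 to 58923888 and at 62930481 to 62930980, both WT peaks were 501 bp wide and offset by 1 bp. At the other end, the member on chromosome 1 from 3285026 to 3285027 is 2 bp wide, because a WT peak of 1077 bp and one of 501 bp touched only there. Members on chromosome 9 (59638113 to 59638115) and chromosome 7 (63045610 to 63045612) were 3 bp wide.

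Few members kept a peak in a single *crel-2* replicate. Replicate 1 of *crel-2* had a peak at 92 sites (1.59%) and replicate 2 at 175 (3.02%), and 9 sites had peaks of both that shared no base within the site. In all, 258 sites, or 4.45% (3.95 to 5.01), had a *crel-2* peak and 5543 had none in either list. Of the bases of the members, 0.65% lay in peaks of *crel-2* replicate 1 and 1.44% in peaks of replicate 2. Narrow lost sites of the interior had a *crel-2* peak in 12.2% of cases (10.6 to 13.9) and wide lost arm sites in 10.8% (9.02 to 12.9). Any overlap of 1 bp or more counted, and the wide lost arm sites had a median width of 5558 bp, against 1066 bp for the members. The part of width in these shares was not tested. The rule bears on these shares, since a base shared by both *crel-2* lists would have removed the site, whereas a peak of 1 list alone would not. Along the arm the share was 2.62% in the outermost 2.5% and 9.26% between 20% and 25% of the length.

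The 258 sites lay closer to *crel-2* intervals than the rest, with a median gap of 5224 bp to the nearest reproducible *crel-2* interval, against 45069 bp for the 5543 sites without a *crel-2* peak. The *crel-2* peak covered a median of 54.4% of the site and all of it at 44 sites. On chromosome 2 from 38739259 to 38741142, a member of 1884 bp lay wholly in a peak of *crel-2* replicate 1, and WT replicates 1 and 2 had peaks of 1959 and 2149 bp there. On chromosome 1 from 73029756 to 73030227, a member of 472 bp lay wholly in a peak of *crel-2* replicate 2, 206149 bp from the nearest reproducible *crel-2* interval. A further 3 members lay wholly in a peak of replicate 2, on chromosome 1 at 5453916 to 5454588, 19505428 to 19505928 and 72574114 to 72574614. At each of these a WT peak also reached a reproducible *crel-2* interval nearby.

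Around the centres of the members the *crel-2* lists were low over the whole window examined, which reached 20 kb to each side. At the centre 0.74% of the members lay in a peak of *crel-2* replicate 1 and 2.15% in one of replicate 2, against 100% in each WT list by the rule. At 5000 bp downstream of the centre in chromosome coordinates the shares were 3.12% and 3.41% in the *crel-2* replicates, against 21.2% and 20.01% in the WT replicates. At 20000 bp they were 5.60% and 5.96%, against 17.4% and 16.2%. The *crel-2* shares were thus below the WT shares at these distances too, and near the centre the rule itself keeps them low. Kept regions were chosen for holding a *crel-2* interval, and the width limit was put on the WT interval alone, so wider *crel-2* than WT peaks around them are in part set by the rule. At their centre 95.1% and 96.4% of the kept narrow arm regions lay in a peak of the *crel-2* replicates, against 100% in each WT list. At 5000 bp from it 29.8% and 32.1% lay in a peak of the *crel-2* replicates, against 24.8% and 24.3% in the WT replicates.

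**Figure D5:**
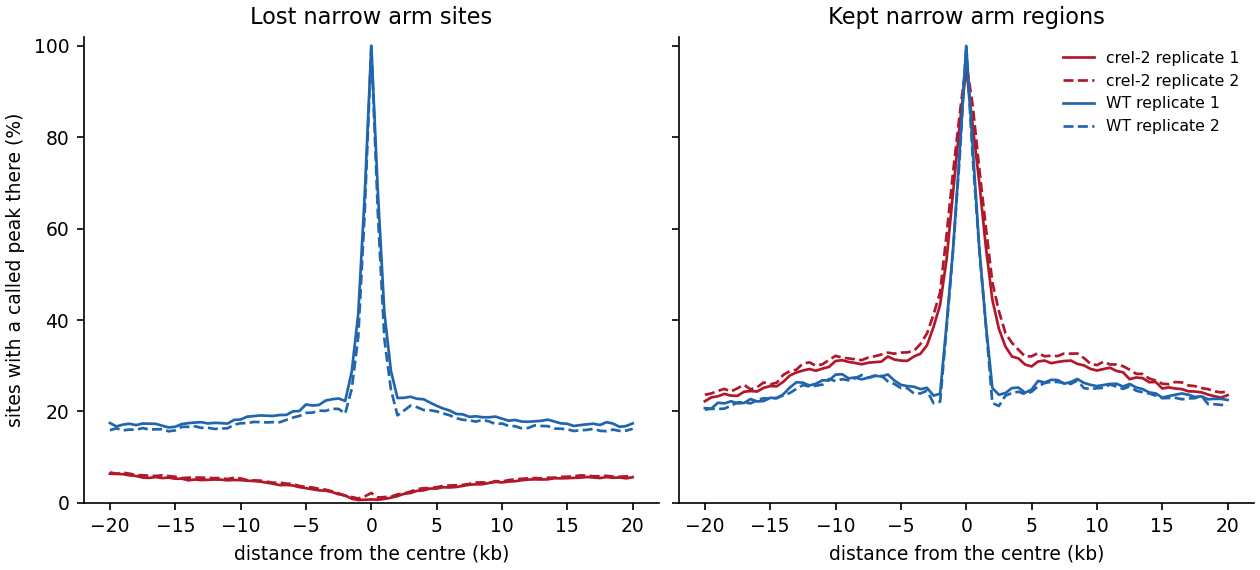
Share of sites at which a called peak covers the position, in percent, against the distance from the centre of the site in kb, for the 5801 lost narrow arm sites (left) and the 2114 narrow arm regions that were kept (right), in each of the 4 lists. Both WT lists are at 100% at the centre by the rule. At 5 kb the *crel-2* lists are at 3.12% and 3.41% around lost sites and at 29.8% and 32.1% around kept regions.

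Distances between regions describe the neighbourhood further. The median gap of a member to the nearest other reproducible WT region was 2492 bp, against 2352 bp for kept narrow arm regions, and it was longer for the members on 8 of 12 chromosomes (exact sign test, two-sided, with chromosomes as units, p = 0.388, adjusted p = 0.388 over the 2 sign tests computed, by the Benjamini-Hochberg method). The chromosomes come from the same 4 libraries, so this p-value measures evenness over chromosomes and not the spread between plants. The gaps of the chromosomes differed by between -1019 and 949 bp, and the direction depended on the setting. The median gap of a member to the nearest reproducible *crel-2* interval was 42850 bp, and 17.9% of the members lay within 10 kb of one. The nearest pair was 7 bp apart, at a member of 137 bp on chromosome 1 (87927096 to 87927232) whose WT replicate 2 peak of 664 bp reached that interval. The members nearest to such an interval after it were on chromosome 6 (38411421 to 38411538 and 1561584 to 1561795) and chromosome 7 (51245472 to 51245717 and 59635190 to 59635509), with gaps of 16 to 62 bp. All 4 of these held a peak of *crel-2* replicate 2.

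The members farthest from any *crel-2* peak all lay in the first arm of chromosome 2. A pair at 9242076 to 9243089 and 9244166 to 9244813 was 603900 and 605990 bp away from the nearest *crel-2* peak of either list, and a pair at 9230391 to 9232483 and 9233037 to 9233669 was 592215 and 594861 bp away. Each pair was cut from a single WT replicate 1 peak, of 2770 and 3298 bp. The fifth was at 2118365 to 2120040, 541830 bp from a *crel-2* peak. With 25 members and 12 kept narrow regions this arm held the fewest narrow regions of all 24.

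Of all WT regions on the arms, wide ones included, 62.3% were lost. The WT regions next to each site on either side were its neighbours. A region next to several sites was counted for each of them, and adjacent members counted each other. Of the 11592 neighbours of members counted in this way 81.2% were lost, against 25.3% of the 4224 neighbours of kept narrow arm regions. These shares of neighbours are therefore not shares of distinct regions, unlike the 62.3%. At 3906 members, or 67.3%, every neighbour was lost, and at 282, or 4.86%, none was. Of the members, 1075 shared a WT peak with another member and 150 with a kept region, and the share lost varied with the distance from the chromosome end. The part of either in these shares was not tested.

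Uninterrupted rows of members, with no other reproducible region of either genotype between them, numbered 1823. Of these, 612 were single sites and 406 had at least 5 sites. The rows of at least 5 sites held 3025 members, or 52.1%. As background, 73.3% of the narrow and 62.3% of all WT regions on the arms were lost. Whether the rows are longer than these shares alone would give was not tested. Rows of at least 10 sites numbered 73 and were found on all 12 chromosomes. The longest row had 19 sites over 532600 bp on chromosome 3 (59017780 to 59550379), of which 26349 bp lay in the sites. It was followed by 4 rows of 18 sites. These were on chromosome 1 (70873172 to 71297294), chromosome 6 (35156824 to 35345246), chromosome 8 (62034074 to 62229753) and chromosome 12 (63189489 to 63873399). No site of the first 4 of these 5 rows had a peak in either *crel-2* list, and 2 sites of the row on chromosome 12 had one.

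The row on chromosome 3 shows how members are laid out. Its sites were from 501 to 2776 bp wide with a median of 1374 bp, and some stood alone while others were pieces of a common WT peak. The sites at 59204191 to 59205564 and 59206142 to 59208172 are both covered by a WT replicate 1 peak of 4267 bp, and replicate 2 had 2 peaks of 1374 and 2174 bp. The site at 59347305 to 59349687 stood alone, 27587 bp from the next, with WT peaks of 2499 and 2612 bp and an agreement of 0.87. The nearest *crel-2* peak of either list was 278223 bp from it.

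Members were also counted in windows of 1 Mb. Of the 355 windows with a member, the median window held 15 members and 145 windows held at least 20. The fullest was on chromosome 4 from 60000001 to 61000000, with 54 members. Of its 66 reproducible WT regions 63 were lost and 3 kept. The next were on chromosome 2 from 46000001, with 49 members and 13 regions kept, chromosome 3 from 1, with 47 members and 7 kept, and chromosome 6 from 35000001, with 45 members and 23 kept. The fifth place was shared by 2 windows with 44 members, on chromosome 2 from 42000001 and on chromosome 4 from 59000001. Dense windows thus differed in how many of their regions, wide ones included, were kept. Narrow regions numbered 55, 52, 50 and 54 in the windows with 54, 49, 47 and 45 members.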

How the data were processed

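Single-end ChIP reads were mapped by the authors with Bowtie2 at default settings, filtered on mapping quality and freed of PCR duplicates with SAMtools, and peaks were called in each replicate with HOMER. The settings of HOMER are not given in the sources used here, nor whether the lists were called before or after the reads were scaled to the lowest depth, a step that the methods also name. The deposited lists hold only peak positions, in other words no score, and their sequence names are those of SL2.40, whereas the methods name SL3.0, so no position was converted. The deposited RNA table holds the authors' comparison of *crel* with WT (a mean normalized count, log2 fold changes and p-values over all libraries) and was not used. Input and RNA libraries were not used here.

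Members, neighbours and shares were computed from the 4 lists with Python 3.11.15, numpy 2.4.6, pandas 2.3.3 and scipy 1.17.1. The members were counted again with bedtools 2.31.1, which also gave 5801. The functions were tested on simulated lists, in which all 4 planted classes were recovered. Depth is not in the lists. Read totals per library stand in the supplementary tables of the study and were not used here. The peak totals given there are not those of the deposited lists, so which set of reads gave these lists is not settled. Shares have 95% Wilson intervals, and in the main setting 2 exact sign tests used chromosomes as units. The one on replicate agreement is not read as a test, since agreement contains the width of the region. Both were repeated, without adjustment, under the alternatives where they had a value. Members, lists and tests were chosen with earlier results of these data known. Sites named in the text are those just inside and outside each limit, the 5 longest rows, the 5 fullest 1-Mb windows (with ties), the 5 farthest from and 5 nearest to *crel-2* peaks, the 5 most covered by a *crel-2* peak, and the 3 with the highest and 3 with the lowest replicate agreement. The examples in the row on chromosome 3 were chosen after their values were seen. Alternatives changed the definition of a region, of absence and of overlap, the width and arm limits, the minimum width, the joining of peaks and each replicate.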

Additional observations from a re-analysis of the deposited data

How the results depend on the processing

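Presence or absence of a peak depends on a threshold that the lists do not give, so a lost site is a site without a call, and the depth behind it limits what that shows. The number of lost narrow arm sites stayed within 1.5 times of 5801 under every alternative run for it, from 4391 (narrow under 2000 bp) to 6019 (kept only if 50% covered) and, with 1 replicate left out at a time, from 5626 to 7201. Of the 5801 sites, 95.6% also had no peak in either *crel-2* list, 81.0% were found again with joined regions, and between 89.7% and 98.4% with 1 replicate left out. The share of narrow arm regions lost was 75.1% with joined regions, 70.0% with a peak in either *crel-2* list counted as kept, 76.0% when 50% had to be covered, 78.5% under 2000 bp, 79.5% with arms of 15%, 74.8% with peaks within 1000 bp joined, and between 71.1% and 77.2% with 1 replicate left out. The excess of arms over interiors, 24.5 percentage points, was 27.1 with a peak in either *crel-2* list counted as kept, 21.1 under 2000 bp, 27.4 with arms of 15%, and between 22.0 and 26.4 with 1 replicate left out. Settings added after seeing the data kept 1 width class, with 76.4% lost at 1000 to under 2000 bp and 65.2% at 2000 to under 3000 bp. In these classes the difference in replicate agreement, lost minus kept, was -0.014 and -0.0073, against -0.11 over all widths. The gap to the nearest WT region, longer by 140 bp for lost sites, was shorter with joined regions (-215 bp), with peaks within 1000 bp joined (-496 bp, exact sign test p = 0.0386), at 2000 to under 3000 bp (-543 bp) and with WT peaks that gave 1 region only (-240 bp, added after seeing the data). It was longer under 2000 bp (587 bp, exact sign test p = 0.0386) and with arms of 15% (664 bp, exact sign test p = 0.00635). With 1 replicate left out it lay between 165 and 233 bp. A sign test was run in every setting, and these p-values of the alternatives are unadjusted. The cause of the changes between settings was not tested. Replicate agreement has no value without either WT replicate. No paired analysis was possible because the counts and shares come from no test between genotypes, and nothing in the labels ties replicate 1 or 2 of one genotype to that of the other.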

Other observations

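Wide arm regions showed an order along the chromosome like that of the narrow ones. Of wide WT regions, 43.3% were lost in the outermost 2.5% of the chromosomes and 16.6% between 20% and 25% of the length. Per Mb of the outermost 2.5% there were 4.98 and 5.08 wide peaks in the *crel-2* replicates, against 11.9 and 11.8 in the WT replicates. Between 20% and 25% the lists were close, with 5.68 and 6.15 wide peaks per Mb in the *crel-2* replicates, against 6.22 and 5.96 in the WT replicates. Between 40% and 50%, in the middle of the chromosomes, there were 2.71 and 3.04 wide peaks per Mb in the *crel-2* replicates, against 2.66 and 2.65 in the WT replicates.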
